A study of Drosophila melanogaster with 2 samples.

Results

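The peaks described here were 311 of the 30000 peaks in the list that the authors called on 2 pooled replicates of whole adult male Drosophila melanogaster, and they were chosen by position alone. A peak was taken when its summit, the base of highest signal, lay in the pericentric end of a chromosome arm or on the small chromosome 4. The pericentric ends were chromosome 2L beyond 22 Mb, 3L beyond 22.9 Mb, 3R before 4.55 Mb and X beyond 22 Mb, in the dm6 build. The 2L end held 36 peaks, the 3L end 37, the 3R end 94, the X end 55 and chromosome 4 held 89. The other 23824 peaks of 2L, 3L, 3R and X served for comparison. 2R has no block under this rule and was left out.

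The flies came from a transgenic line that stably expressed tHMG1 (CG7045) with GFP at its C-terminus. Sonicated chromatin was recovered with an antibody against GFP and sequenced (ChIP-seq, chromatin immunoprecipitation followed by sequencing). Both samples were adult males of unknown age from this line. They form 1 group, with biological replicate numbers 1 and 3, so the study has no second condition, and no input or untagged control was analysed here. Whole males mix all tissues, so peaks cannot be assigned to a cell type, and peak lists hold no values by which the tissue label could be checked. What drives the transgene is not given in the sources used here.

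Pericentric heterochromatin is the compact, repeat-rich DNA that flanks each centromere. In Drosophila it carries histone H3 methylated at lysine 9 and the protein HP1, yet it holds essential genes that are transcribed there. Chromosome 4 is also rich in HP1 and is bound by its own protein, Pof, although most of its genes are active. tHMG1 is an HMG-box protein. Such proteins bind and bend DNA through a conserved domain.

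The sequences below are the centres of the 5 strongest peaks, shown because they led the signal of the set. Each runs 5′ to 3′ on the plus strand of dm6, reaches at most 60 bases to either side of the summit, and stops where an annotated UTR begins. The letters come from the RefSeq copy of this assembly. Capitals mark a match, on either strand, to 1 of the 8 short motifs listed further on. The name is that of the gene with the nearest transcription start site (TSS).
asRNA:CR45999 (chr3R:4395283-4395403): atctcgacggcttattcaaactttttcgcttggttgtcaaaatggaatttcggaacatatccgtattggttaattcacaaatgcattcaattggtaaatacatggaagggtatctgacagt
RpS3A (chr4:67208-67313): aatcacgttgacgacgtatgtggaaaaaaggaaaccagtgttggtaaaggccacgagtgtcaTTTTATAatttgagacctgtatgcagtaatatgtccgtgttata
gw (chr4:660087-660207): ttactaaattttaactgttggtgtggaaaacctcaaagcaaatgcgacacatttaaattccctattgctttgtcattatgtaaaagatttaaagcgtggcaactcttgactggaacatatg
DhpD (chr3R:4229282-4229402): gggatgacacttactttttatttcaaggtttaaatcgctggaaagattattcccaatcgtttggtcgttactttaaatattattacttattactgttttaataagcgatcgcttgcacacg
PlexA (chr4:1027204-1027324): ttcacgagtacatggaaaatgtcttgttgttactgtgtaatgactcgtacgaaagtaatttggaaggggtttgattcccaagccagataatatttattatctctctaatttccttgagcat
The second group holds a pair of 3R peaks with motif matches, the strongest peaks of the 2L and 3L ends, and a peak of the X end inside l(1)G0196.
CG31523 (chr3R:4478270-4478390): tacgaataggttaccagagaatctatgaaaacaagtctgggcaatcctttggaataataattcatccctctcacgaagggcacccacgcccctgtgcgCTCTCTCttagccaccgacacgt
CG1074 (chr3R:4433900-4433964): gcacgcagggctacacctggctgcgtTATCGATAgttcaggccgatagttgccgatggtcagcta
CG6675 (chr2L:22108794-22108914): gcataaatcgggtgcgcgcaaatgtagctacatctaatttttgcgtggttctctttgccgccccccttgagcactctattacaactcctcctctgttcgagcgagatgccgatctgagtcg
RpL10 (chr3L:23095472-23095555): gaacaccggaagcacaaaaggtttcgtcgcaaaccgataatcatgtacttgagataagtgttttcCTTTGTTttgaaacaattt
lncRNA:CR43493 (chrX:22491072-22491192): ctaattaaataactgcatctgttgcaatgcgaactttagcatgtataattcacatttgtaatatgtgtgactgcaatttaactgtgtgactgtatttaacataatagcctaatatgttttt
Within 200 bp around the summit, none of the 10 strongest peaks held a word of 32 bases that occurs a second time in the assembly. Few of the centres held a motif. The RpS3A centre had a TATA box and the CG31523 centre a GAGA repeat, both on the minus strand. The CG1074 centre had a DRE, the palindrome bound by the promoter factor DREF, and the RpL10 centre had an HMG-box site on the minus strand.

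The strongest peak of the set lay at chr3R:4395189-4395449, 206 bp upstream of the antisense transcript asRNA:CR45999. Its signal, which is the authors' own value for a peak within each list, was 277.7 in the pooled list, 144.0 in replicate 1 and 139.3 in replicate 3. The peak 46 bp upstream of RpS3A on chromosome 4, a gene for a protein of the small ribosomal subunit, had a signal of 264.1 in the pooled list, 142.0 in replicate 1 and 126.9 in replicate 3. In the replicates' own lists, asRNA:CR45999 ranked 979 and 540, and RpS3A 1006 and 644, in replicates 1 and 3.

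The third peak lay inside gw, 164 bp upstream of its nearest TSS. gw encodes the GW182 protein of microRNA silencing. Its signal was 239.4 in the pooled list, 151.6 in replicate 1 and 95.6 in replicate 3. The fourth, 104 bp upstream of DhpD, a deaminase of eye pigment synthesis, had a signal of 225.4 in the pooled list, 121.8 in replicate 1 and 109.1 in replicate 3. PlexA encodes a semaphorin receptor that guides axons. The peak 163 bp upstream of it had a signal of 184.0 in the pooled list, 110.3 in replicate 1 and 73.6 in replicate 3. By rank in its own list, replicate 1 had gw and PlexA higher and replicate 3 had DhpD higher.

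On 3R an intronic peak of CG31523, a member of the fatty acid elongase family, lay 519 bp from the nearest TSS. Its signal was 183.0 in the pooled list, 92.2 in replicate 1 and 83.7 in replicate 3. The peak 5 bp upstream of CG1074 had 169.1 in the pooled list, 102.9 in replicate 1 and 66.0 in replicate 3. A peak of chromosome 4 lay 1256 bp upstream of lncRNA:CR43437, between genes, with 166.9 in the pooled list, 77.2 in replicate 1 and 88.8 in replicate 3. The other 9 of the 10 strongest peaks had the higher signal in replicate 1, as did 66.7% of peaks found in both replicates on the rest of the arms. By rank within each replicate's own list, 6 of the 10 stood higher in replicate 3.

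The strongest peak of the 2L end lay 110 bp upstream of CG6675, with 133.4 in the pooled list, 75.1 in replicate 1 and 58.7 in replicate 3. The peak 92 bp upstream of tub, which encodes the adaptor Tube of the Toll pathway, had 127.7 in the pooled list, 78.1 in replicate 1 and 50.4 in replicate 3. In all, 8 of the 10 strongest peaks lay within 500 bp of a TSS.

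The X and 3L ends held weaker peaks. The strongest on X lay 43 bp upstream of CG14615, with 109.4 in the pooled list, 76.1 in replicate 1 and 41.9 in replicate 3. The next on X were those near lncRNA:CR43493, with 102.0, 55.8 and 49.8 in the same order, and near lncRNA:CR45010, with 74.1, 44.6 and 28.9. The strongest on 3L lay 24 bp upstream of RpL10, a gene of the large ribosomal subunit, with 83.7 in the pooled list, 38.6 in replicate 1 and 46.4 in replicate 3. The highest signal on the rest of the 4 arms was 2864, and the best member ranked 796 among the 30000 peaks.

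Of the 311 members, 31 were also in the authors' optimal list of peaks that passed the irreproducible discovery rate (IDR), a measure of rank consistency between replicates. That is 9.97%, with an exact 95% binomial interval of 6.87 to 13.8%. In the whole pooled list the share was 15.2%, and on the rest of the same arms it was 15.4%. All such intervals cover counting error alone, and they treat peaks as independent although some overlap. The lowest signal in the IDR list, 90.33, was above the highest outside it, 90.31, so the list separated peaks by signal.

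By block the intervals of this share overlapped. The 3R end had 14 of 94 peaks in the IDR list (14.9%) and chromosome 4 had 12 of 89 (13.5%), both close to the background. The 2L end had 3 of 36 and the X end 2 of 55. The 3L end had 0 of 37, for which the exact interval allows up to 9.49%. Taking as many of the strongest peaks from each replicate's own list, 26 of 316 block peaks of replicate 1 (8.23%) and 28 of 449 of replicate 3 (6.24%) were among them, against 15.3% and 15.5% on the rest of the arms.

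The IDR-listed members outside the 10 strongest had signals from 90.98 to 127.6. On 3R they lay at promoters of Lipt2 and Sfxn1-3, which serve mitochondrial metabolism, of Suv3, a mitochondrial RNA helicase, of Gel, the actin-severing gelsolin, of CG9776 and of CG31523, where 2 overlapping peaks share 1 promoter. The Lipt2 peak had 127.5 in the pooled list, 86.4 in replicate 1 and 45.3 in replicate 3, and the Gel peak had 97.7, 67.1 and 24.7 in that order. An intronic peak nearest CG14636 and a peak in the antisense transcript asRNA:CR43629 completed the 3R group. On 2L they lay at Clamp, whose zinc-finger protein takes part in male dosage compensation, and at CycK, the cyclin partner of a kinase of RNA polymerase II. Clamp had 110.6 in the pooled list, 52.0 in replicate 1 and 58.5 in replicate 3. On chromosome 4 they lay at CaMKI, a calcium-dependent kinase, Sox102F, a Sox transcription factor that itself has an HMG box, ATPsynbeta, a subunit of the mitochondrial ATP synthase, Gyf, Rnf11 and Pur-alpha, with the remaining 2 nearest Asator and myo. Sox102F had 108.1 in the pooled list, 67.6 in replicate 1 and 37.3 in replicate 3.

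By any overlap, recovery in single samples was like that of other peaks. Of the 311 members, 209 (67.2%) overlapped a peak in both replicates, against 68.5% on the rest of the arms. All 31 IDR-listed members did. A further 37 members overlapped a peak of replicate 1 alone, 52 of replicate 3 alone and 13 of neither. Recovery was lower when only the strongest peaks of each replicate, as many as the IDR list holds, were counted. Then 21 of 311 members (6.75%) overlapped such a peak in both replicates, against 15.3% on the rest of the arms. Among IDR-listed members it was 15 of 31 (48.4%, interval 30.2 to 66.9%), against 77.0% of IDR-listed peaks on the rest. This count is itself a cut by signal, and the IDR-listed members had a median signal 0.749 of that on the rest. The part of signal in the difference was not tested. Overlapping peaks reduced the 311 members to 252 separate loci, and 1 replicate peak can then stand behind several members.

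**Figure D1:**
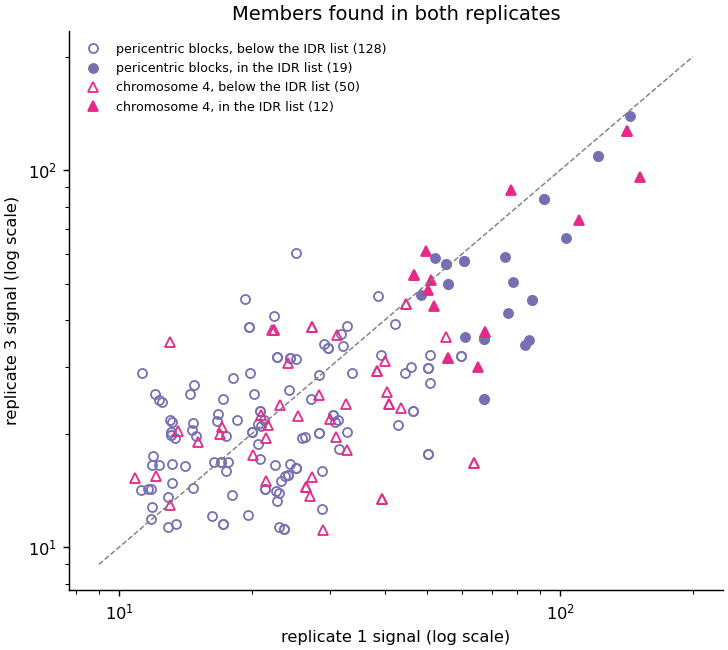
Signal of the 209 members found in both replicates, replicate 1 on the horizontal and replicate 3 on the vertical log axis, with IDR-listed members filled and equality dashed. The IDR-listed members fill the upper right, and replicate 1 had the higher signal for 123 of the 209 peaks (58.9%, against 66.7% on the rest of the arms).

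Across these 209 peaks the signals of both samples rose together, with a Spearman coefficient of 0.63, against 0.75 over the 16324 such peaks on the rest of the arms. These are descriptions. Peaks share libraries and depth, and overlapping members share values.

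The blocks were sparsely covered. They held 22.3 peaks per Mb of sequenced bases, against 252.3 per Mb on the rest of the 4 arms, which is 11.3-fold lower. Density was 11.1-fold lower in replicate 1's own list and 7.78-fold lower in replicate 3's. The 3L end was the emptiest, with 7.26 peaks per Mb, followed by 3R with 20.8, 2L with 23.8 and X with 37.3, and chromosome 4 had the most, with 66.9. Replicate 3 listed 87 peaks in the 3L end where replicate 1 listed 25, and there the 3L end had 17.1 peaks per Mb, against 29.7 on 2L and 25.6 on 3R.

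Repeated sequence was far more common in the blocks. Of all positions in the blocks, 54.2% began a word of 32 bases that occurs more than once in the assembly, against 5.25% on the rest of the arms. A read no longer than such a word has no single match there, whereas a longer read may have one. The share was 58.3% over the 4 pericentric ends and 15.6% on chromosome 4. Per Mb of words found once, the blocks held 48.7 peaks and the rest 266.3, which is 5.47-fold lower, with 5.39-fold in replicate 1 and 3.76-fold in replicate 3. Genes were sparser too, with 20.4 protein-coding genes per Mb against 114.5. Among the ends the order of repeats was not that of density. The 3R end had the most repeated words, at 61.4%, but not the fewest peaks, and the X end, at 54.4%, was denser than the 2L end, at 50.8%. In the pooled list, protein-coding genes per Mb followed the order of peaks per sequenced Mb. Gene density was 8.24 on 3L, 14.6 on 3R, 24.4 on 2L and 39.97 on X. Chromosome 4 had the most here too, with 60.1. In replicate 1's own list the 3R end, with 20.8 peaks per Mb, stood above the 2L end, with 19.2. Per Mb of words found once, pooled density was also higher on 3R (53.8) than on 2L (48.3). By that measure X (81.7) stood above chromosome 4 (79.2). The part of repeats and of gene spacing in the density was not tested.

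**Figure D2:**
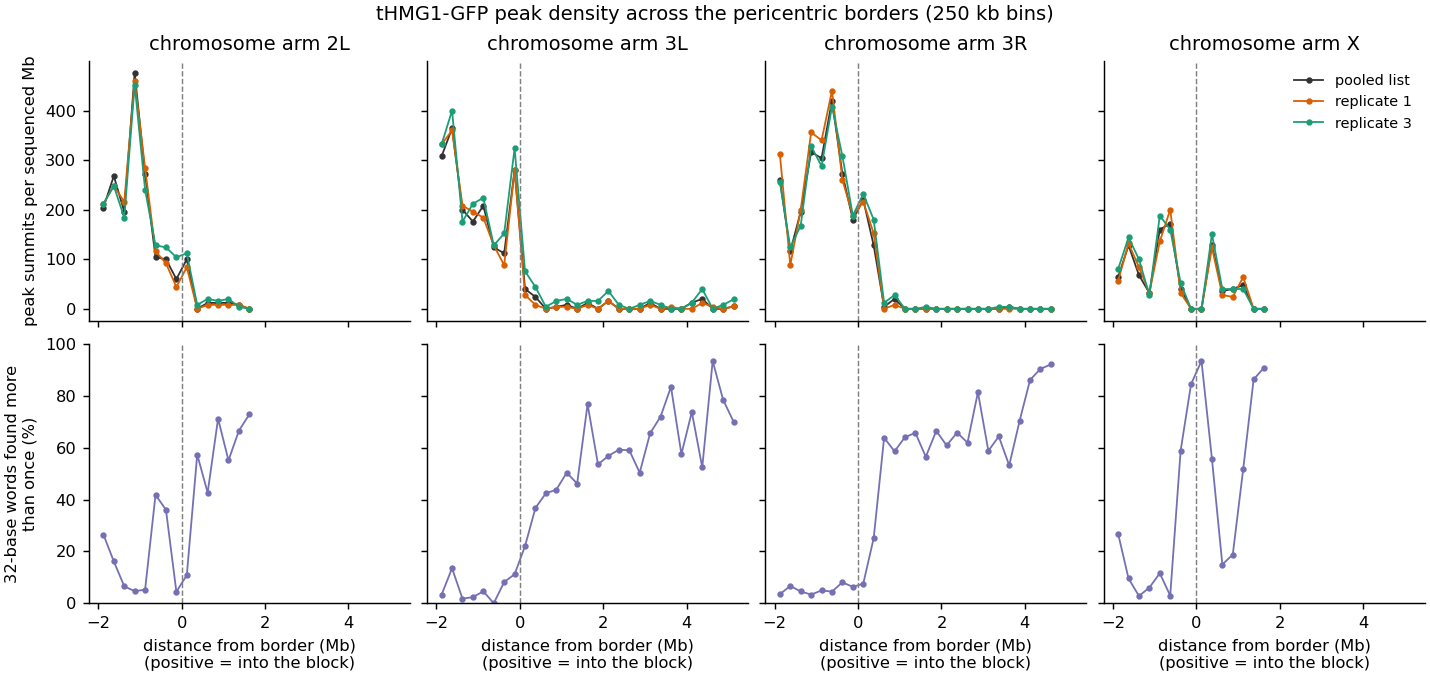
Peak summits per sequenced Mb in 250 kb bins by distance from the border (dashed) for the pooled list and each replicate, above the percentage of 32-base words found more than once in the same bins. On 3R the first 4 bins inside held 55, 32, 1 and 5 peaks, beside shares of repeated words of 7.57, 25.1, 63.8 and 58.6%.

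Within the ends the peaks lay mostly near the border. The first 1 Mb held 184 of the 222 pericentric peaks and all 19 of those in the IDR list. Deeper DNA, 8.68 Mb of it, held 38 peaks, or 4.38 per Mb, and 27 of its 38 bins were empty in the pooled list. Genes lay mostly near the border too, with 158 protein-coding genes in the first 1 Mb and 46 deeper. The 3R end was the extreme case, with 93 peaks in its first 1 Mb and 1 peak in the 3.53 Mb beyond, in which 3 protein-coding genes start. Replicate 1 had 0 and replicate 3 had 3 peaks there. The 3L end held 17 peaks in its first 1 Mb and 20 in the 4.10 Mb beyond, or 17.0 and 4.88 per Mb. Density also fell on 2L, from 31.0 to 9.73 per Mb, and on X, from 46.0 to 22.2.

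The deep peaks of 3L included several at genes of basic cell functions. Dbp80, an RNA helicase of the DEAD-box family, lies 4.38 Mb inside the border, and the peak 127 bp upstream of it had 64.7 in the pooled list, 22.8 in replicate 1 and 31.95 in replicate 3. MED21, a Mediator subunit, had 61.1 in the pooled list, 33.8 in replicate 1 and 28.9 in replicate 3. RpL15, of the large ribosomal subunit, had 51.6 in the pooled list, 24.3 in replicate 1 and 26.1 in replicate 3. All of them were present in both samples and under the lowest signal of the IDR list.

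In the pooled list a stretch without peaks spanned the X border, reaching 367.3 kb outside it to the peak nearest lncRNA:flam. The first 443.4 kb inside carried 0 peaks in the pooled list and in each replicate, although 21 protein-coding genes start there, from CG40813 to CG41562. In this inner stretch 88.7% of 32-base words recur in the assembly, and all 21 genes consist for the most part of such words. How the authors treated reads with several matches is unknown, so whether tHMG1 is absent there cannot be told from these lists.

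At each of the 4 borders the first peak inside had a higher signal than the last one outside, which compares single peaks. On 3L the first peak inside, nearest CG12768, had a signal of 76.0 and the last one outside, nearest lncRNA:CR44688, had 25.4. On 2L they were 26.7 near tio and 19.5 near lncRNA:CR44804, on 3R 53.2 near CG31523 and 21.3 near CG34357, and on X 22.9 near CG14621 and 18.7 near lncRNA:flam. Within 250 kb of the border the 3R end held 55 peaks inside and 45 outside, whereas the 3L end held 10 inside and 70 outside. The median signal in that range was lower inside on 2L (26.7 against 31.6) and on 3L (30.3 against 35.1). It was higher inside on 3R (38.2 against 29.4), and X had no peaks in that range.

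Where members lay relative to genes set them apart from other peaks. Summits within 500 bp of a TSS made up 187 of 311 members (60.1%, interval 54.5 to 65.6%), against 35.0% of peaks on the rest of the arms. In replicate 1's own list the shares were 55.1% and 34.3%, and in replicate 3's 48.3% and 33.9%. The median distance to a TSS was 287 bp in the members and 1176 bp in the rest. Of the 31 IDR-listed members, 26 (83.9%, interval 66.3 to 94.5%) lay within 500 bp, against 56.8% of IDR-listed peaks elsewhere. The 2L and 3L ends had the highest shares in the pooled list, 69.4% and 70.3%, but in replicate 3's own list theirs were the lowest of the blocks.

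Over all blocks, peaks were fewer than on the rest in each kind of DNA, with the smallest deficit at promoters. There, DNA within 500 bp of a TSS held 390.4 peaks per Mb, 1.53-fold fewer than the 596.7 per Mb of the rest. Introns farther from a TSS held 11.4 per Mb, 24.3-fold fewer than the 277.5 per Mb of the rest. DNA between genes held 3.12 per Mb, 42.0-fold fewer than 131.0 per Mb. Exons away from a TSS held 41.5 per Mb, 2.47-fold fewer than 102.6 per Mb. Exons of the 3R end were an exception, with 112.9 per Mb, and in replicate 3 the pericentric exons were 1.13-fold and the pericentric promoters 1.39-fold below the rest.

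Per Mb of words found once, the deficit was 1.35-fold at promoters, 13.3-fold in introns and 14.9-fold between genes. In replicate 1 these values were 1.42, 12.2 and 13.6, and in replicate 3 they were 1.12, 7.58 and 6.74. Repeated words made up 14.0% of promoter DNA in the blocks, 48.6% of introns and 67.7% of DNA between genes.

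Chromosome 4 had more peaks per Mb than the 4 pericentric ends together in introns and between genes, and fewer in exons. Single ends departed from this, with 59.0 per Mb in introns of the X end and 0 in exons of the 3L end. Introns of chromosome 4 held 26.9 peaks per Mb, against 9.81 in the pericentric ends, and its DNA between genes held 40.8, against 1.69. Both stayed below the rest of the arms. Its exons away from a TSS held 18.3 per Mb, against 59.8 in the pericentric ends, and 47.0 against 57.7 in replicate 1 and 47.0 against 107.2 in replicate 3. In replicate 3's own list, promoter DNA of chromosome 4 was 1.05-fold below the rest, and in replicate 1's 1.28-fold.

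**Figure D3:**
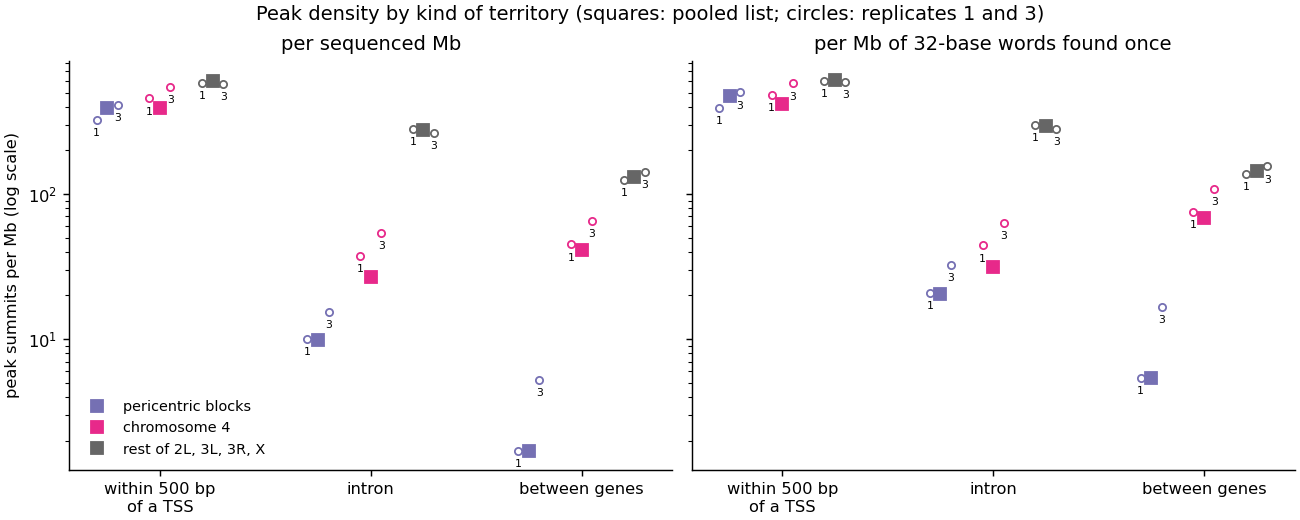
Peak summits per Mb, on a log axis, for DNA within 500 bp of a TSS, introns and DNA between genes, per sequenced Mb at left and per Mb of 32-base words found once at right. Squares are the pooled list and circles the single replicates, and the pericentric ends lie farthest below the rest between genes, where chromosome 4 was 2.10-fold below it per Mb of words found once.

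Members near a TSS had a median signal of 36.9, against 26.7 for the other members, and on the rest of the arms the medians were 47.4 and 30.7. Among IDR-listed members it was 109.2 near a TSS and 127.6 elsewhere. Over all members the median was 31.97, against 34.8 on the rest of the arms. This ratio of 0.92 was 0.97 in replicate 1 and 0.85 in replicate 3. Chromosome 4 stood at 41.9, above the rest in the pooled list and in replicate 1 (ratios 1.20 and 1.08) and below it in replicate 3 (0.97).

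Counted by gene, 126 of the 284 protein-coding genes that start in the blocks had a summit within 500 bp of a TSS. That is 44.4% (interval 38.5 to 50.4%), against 55.7% on the rest of the arms. A summit of the IDR list stood at 28 of them (9.86%), against 21.9%. Leaving aside genes whose promoter consists for the most part of repeated words, 124 of 257 genes had a summit (48.2%), against 57.0% of such genes elsewhere. Block by block the shares were 34 of 66 on 3R, 39 of 80 on chromosome 4, 15 of 37 on 2L, 17 of 42 on 3L and 21 of 59 on X.

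The gene share of chromosome 4 depended on the list. It was 48.8% in the pooled list, 58.8% in replicate 1's own and 67.5% in replicate 3's own, where the rest of the arms had 55.2% and 53.5%. The pooled list lacked more of the strong replicate peaks on chromosome 4 than on the rest of the arms. Of the peaks on chromosome 4 among the 10000 strongest of replicate 3, 9 of 38 overlapped no pooled peak, against 0.68% on the rest of the arms. In replicate 1 it was 3 of 33, against 0.49%. The 3L end was alike in replicate 3, where 2 of 10 such peaks had no pooled peak. Over all replicate 3 peaks the share was 59.8% there and 47.6% on chromosome 4, against 18.9% on the rest of the arms. The 2L, 3R and X ends lay between, at 31.1%, 29.3% and 29.3%. The promoter peak of ND-49, a subunit of mitochondrial complex I, had 50.5 in replicate 1 and 28.8 in replicate 3, and no pooled peak.

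**Figure D4:**
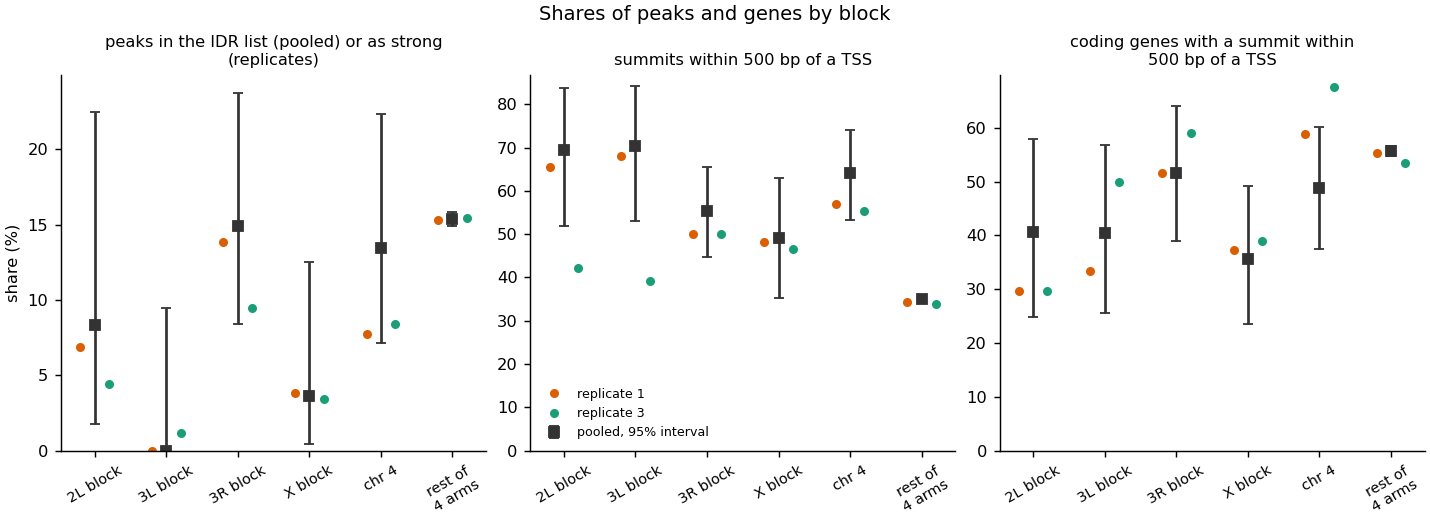
Percentage of peaks in the IDR list (for single replicates, among as many of the strongest), of summits within 500 bp of a TSS and of protein-coding genes with such a summit, by block and for the rest of 2L, 3L, 3R and X. Squares with bars are the pooled list with exact 95% intervals, orange and green points the replicates, which on chromosome 4 had 58.8% and 67.5% of genes against 48.8% pooled.

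Of 16 genes listed as transcription and chromatin factors of chromosome 4, 11 had a pooled summit at a TSS, 3 of them in the IDR list, with a median signal of 55.4. Over all protein-coding genes of chromosome 4 the shares were 48.8% and, for the IDR list, 12.5%. The strongest was gw, which acts in microRNA silencing and is not itself such a factor, followed by Sox102F and Pur-alpha. Next were lgs, the Legless coactivator of Wnt signalling, with 67.7 in the pooled list, 38.4 in replicate 1 and 29.3 in replicate 3, and pan, the HMG-box effector of the same pathway, with 63.8, 27.3 and 38.3. Hcf had 55.4. The peak at ci, the Hedgehog effector, lay nearest asRNA:CR43957 and had 43.0, and that at ey, a Pax6 factor of the eye, had 42.6. No pooled summit stood at toy, sv, fd102C, pho or fuss. The promoter of pho, a Polycomb group DNA-binding protein, had 27.9 in replicate 1 and 25.2 in replicate 3, and toy had 26.7 in replicate 1 alone. Kdm2, also listed, lies outside the blocks.

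Of 23 signalling and neuronal genes of chromosome 4, 11 had a pooled summit (47.8%, close to the 48.8% of all its genes), 2 of them in the IDR list. After PlexA and CaMKI came unc-13, which primes synaptic vesicles, with 60.6 in the pooled list, 32.8 in replicate 1 and 23.9 in replicate 3. The divergent pair Cadps and Dyrk3 shared a peak of 52.9, and Eph, an ephrin receptor, had 49.5. Ank had 43.8 and Asator 43.0. Among the 12 genes with no pooled summit, Syt7, mGluR, Gat, dpr7 and Cals had none within 500 bp of a TSS in either replicate, Ephrin, Actbeta, Crk, Ekar, Arl4 and PIP4K had one in replicate 3 alone and mav one in replicate 1 alone. A replicate 3 peak of 62.5 farther from a TSS lay nearest Cals.

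A mixed list of 11 genes of chromosome 4 held those for translation, energy and repair together with genes of transport and structure. Of these, 7 had a pooled summit (63.6%, against 48.8% of all its genes), RpS3A and ATPsynbeta in the IDR list. ATPsynbeta had 103.2 in the pooled list, 50.9 in replicate 1 and 51.2 in replicate 3. Tdg, a thymine DNA glycosylase, had 62.7, 44.8 and 44.3, and PMCA, the calcium pump of the plasma membrane, had 49.0. Rad23 had 46.2, the zinc transporter gene Zip102B 42.7 and the lipoprotein gene apolpp 34.0. eIF4G1 and Kif3C had no summit in any list, bt had one in replicate 3 alone and ND-49 one in each replicate.

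In the pericentric ends, 15 of 25 genes known as essential or conserved loci had a pooled summit at a TSS, 0 of them in the IDR list, and their median signal was 37.5. Over all protein-coding genes of the pericentric ends the shares were 42.6% and, for the IDR list, 8.82%. RpL5 led with 74.2 in the pooled list, 45.9 in replicate 1 and 30.03 in replicate 3, ahead of Dbp80 and MED21. stnA and stnB, which share 1 transcript and serve synaptic vesicle recycling, had 56.4 in the pooled list, 27.3 in replicate 1 and 24.6 in replicate 3. Gfat1, which opens the hexosamine pathway, had 52.2, 19.7 and 38.5. The next was l(3)80Fg with 37.5. The weakest was Parp1, with 19.1 in the pooled list and 13.2 in replicate 3 alone. cta, AGO3, nvd, spok, Set1, Myo81F, eIF4B, CkIIalpha and Ir40a had no summit at a TSS in any list, and scro had one in replicate 3 alone. Haspin and Gcn1 of this list lie on other sequences and Stim outside the blocks.

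The genes that encode proteins of heterochromatin and chromosome 4 lie outside the blocks, and 7 of the 17 listed are on 2R and were not used. Of the remaining 10, 8 had a pooled summit and 4 a summit of the IDR list, where all genes of the rest of the arms had 55.7% and 21.9%. They were HP4 with 248.5 in the pooled list, the gene of HP1 with 216.8, HP1b with 129.3 and Su(var)3-7 with 104.3. D1 had 75.7, HP5 54.3, Su(var)3-9 48.2 and G9a 40.2. The peaks at the HP1 gene, Su(var)3-9 and HP5 lay nearer the TSS of a neighbour, in that order Ssb-c31a, Set and Evi5. HP1c had no summit in any list and Hmr one in replicate 3 alone, with 14.9. All these lists were small and hand-picked, and no group was tested against other genes.

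In 200 bp around a summit, 16.5% of bases were soft-masked in the reference, against 37.9% over the blocks as a whole. In the rest of the arms the window and the whole were alike, at 17.4% and 17.4%. The values for replicates 1 and 3 were 17.0% and 17.5%. Annotated transposable elements touched 13 of the 311 windows (4.18%), against 0.47% elsewhere. Of these windows, 7 were among the 89 of chromosome 4 and 6 among the 222 of the pericentric ends. By bases, elements made up 2.27% of the member windows and 16.0% of the blocks. On the rest of the arms these values were 0.21% and 3.94%. In replicate 3's own list the share of windows touched was 8.69%, and in replicate 1's 5.06%. The strongest window with any such bases was at Gyf, with a signal of 100.5, where 15.5% of the bases lay in an element. At stnA, with a signal of 56.4, it was 58.0%.

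In the pooled list, for each of the 8 motifs, the exact interval of the share of member 200 bp windows held the share of other peaks. In 100 bp windows it did not for the A tract, at 3.54% (1.78 to 6.24%) against 6.46%. Nor did it for the TATA box, at 8.04% against 5.27%, with the lower bound of its interval just above the latter. Both strands were searched, and matches may overlap. The letters were GAGAGAG for the GAGA repeat, then CACACACA for the CA repeat. They were TATCGATA for the DRE, then AAAAAAAA for the A tract. The TATA box was written TATAAAA and the E-box CAGCTG. The HMG-box site was written AACAAAG and the AT repeat ATATATAT. The HMG-box site occurred in 4.82% of member windows and 6.38% of other windows, and in 5.24% of all 200 bp tiles of the blocks. The TATA box occurred in 13.8% against 10.5%, with 12.2% of block tiles. The CA repeat occurred in 4.18% against 6.83%, and its share of tiles was 1.34% in the blocks and 4.59% outside. The shares were 4.18% and 5.24% for the GAGA repeat, 1.93% and 1.83% for the DRE, and 10.9% and 12.5% for the A tract. They were 7.07% and 10.3% for the E-box and 4.50% and 3.80% for the AT repeat. In 200 bp windows the replicates' own lists differed from the pooled list for 4 motifs. The E-box share lay below that of other peaks in both, at 5.70% (interval 3.41 to 8.85%) against 10.1% in replicate 1 and 6.01% (upper bound 8.63%) against 10.2% in replicate 3. The CA repeat share also lay below that of other peaks in both. In replicate 1 it was 3.80% against 6.56%, with the upper bound of its interval just under the latter. In replicate 3 it was 1.78% (0.77 to 3.48%) against 7.01%. The TATA box was at 12.9% (9.96 to 16.4%) against 9.80% in replicate 3. In replicate 1 the DRE was at 4.11% (2.21 to 6.93%) against 1.94%. The tiles differed in the same directions, with an E-box in 4.83% of block tiles and 8.85% outside, and a DRE in 0.96% and 0.49%. A match is a string of letters and not a measured binding site.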

How the data were processed

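ChIP-seq of GFP-tagged tHMG1 was deposited as peak lists in BED format with 10 columns, for 2 single replicates and for both pooled, in dm6 and dm3. Column 7 holds the deposited signal value of each peak and column 9 its −log10 q-value, per the file layout. The signal describes and ranks peaks within 1 list. The q-value column was read but supports no result. Lists called peaks_and_background hold weak peaks too, so a peak is a list entry and not a bound site. The sources at hand name no aligner or peak caller, and depth is unknown.

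Arm lengths of the RefSeq assembly match dm6, and genes came from Ensembl release 115, without transposable elements. Shares carry exact Clopper-Pearson intervals (Python 3.11, scipy, pandas, numpy). IDR membership was matched by position and summit. Overlap meant at least 1 bp. Words of 32 bases were counted on both strands of the whole assembly. No test was run, since both samples form 1 group and peaks are not replicates. The functions were tested on simulated data. The members and gene lists were chosen with earlier results of these data known, and the word counts and the split by territory were added after seeing the data.

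Named are the genes nearest the 10 strongest members, the 3 strongest of each block, IDR-listed members up to 30, up to 8 members of each list by signal, list members without a peak, and peaks at the borders. Other genes (ND-49, pho, the X stretch and the deepest 3L peaks) were chosen after their values were seen.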

Additional observations from a re-analysis of the deposited data

Results flagged for a closer look

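The dm3 lists were not used in any comparison above. In that build parts of the pericentric DNA are held as separate sequences named 2LHet, 3LHet, 3RHet and XHet, and the pooled dm3 list held 34 peaks on them. They were 4 on 2LHet, 14 on 3LHet, 7 on 3RHet and 9 on XHet. Their highest signal was 63.1 and their median 28.5, and 0 of them were in the dm3 IDR list. Replicate 1's own dm3 list held 27 such peaks and replicate 3's 71 of which 38 were on 3LHet. No control sample was at hand to set them against.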

How the results depend on the processing

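No paired analysis was possible because both samples belong to 1 group. The ratio of peak density in the blocks to the rest was 0.0884. From single replicates it was 0.0897 to 0.129. It was 0.119 per Mb that is not soft-masked, 0.497 per protein-coding gene, 0.0572 for IDR-listed peaks, 0.116 with borders 0.25 Mb nearer the telomere and 0.265 for chromosome 4 alone. Added after seeing the data, it was 0.183 per Mb of words found once, 0.654 within 500 bp of a TSS, 0.0412 in introns and 0.0238 between genes, so its size depends on these choices while each value stayed below 1.

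The IDR share of 9.97% was 6.24 to 8.23% from single replicates, 11.9% with overlapping peaks counted once, 12.0% and 7.69% with borders moved towards the telomere and the centromere, 8.56% without chromosome 4 and 13.5% on it. The median signal ratio of 0.918 was 0.749 for IDR-listed peaks, 0.779 near a TSS and 1.20 on chromosome 4, where its direction turned, and the cause was not tested. The promoter share of 60.1% was 48.3 to 55.1% from single replicates, 48.2% within 250 bp, 72.7% within 1000 bp, 54.3% with protein-coding TSSs and 83.9% for IDR-listed peaks. The gene share of 44.4% was 45.1 to 52.1% from single replicates and 9.86% with IDR-listed summits. The soft-masked share of 16.5% was 17.0 to 17.5% from single replicates and 17.5% in 500 bp windows. Chromosome 4 held 89 pooled peaks, 116 and 143 in the single replicates and 56 in the pooled dm3 list. A list from 1 replicate is its own calling and not the pooled call with a sample removed. Without read depths, a lack of peaks cannot be told from a lack of reads.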
